A study of Homo sapiens with 9 samples.

Results

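Cadherins and protocadherins are calcium-dependent adhesion proteins of the cell surface, and 93 of the 26190 rows with numeric values in the deposited table carry one of their symbols (CDH or PCDH followed by a number or a cluster letter, antisense genes left out). They comprise 23 cadherins, 13 non-clustered protocadherins and the clustered protocadherins, with 15 alpha, 19 beta and 23 gamma rows. RNA-seq was run on Jurkat cells, an established human T-cell leukaemia line, in 9 libraries: 3 of unedited cells (labelled WT), and 3 each of the CRISPR/Cas9-edited lines EZH2-KO1 and EZH2-KO2, each group being biological triplicates per the labels. EZH2 is the catalytic subunit of the Polycomb complex PRC2 and places the repressive histone mark H3K27me3. All cells were grown in the same serum-supplemented RPMI medium without further treatment. Each edited line is 1 line, so p-values measure the spread between its cultures and not between independent edits, and both lines are compared with the same WT libraries.

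A classical cadherin binds the same protein on a neighbouring cell through its extracellular repeats and holds the actin cytoskeleton through catenins on its tail. Protocadherins lack the catenin-binding tail. The alpha, beta and gamma genes lie in tandem arrays, where each neuron uses a few promoters, a choice in which the insulator protein CTCF and cohesin take part. The family is best known from epithelia and the nervous system, and lymphocytes are not a usual site of its expression.

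Values are FPKM, fragments scaled to transcript length and library size, so levels of different genes can be set side by side. Their depth in reads is unknown; the steps between low values gave relative depths from 0.963 to 1.16 against WT replicate 3. EZH2 itself was at 74.4 to 79.5 FPKM in WT, 103 to 108 in KO1 and 87.9 to 90.7 in KO2, and a value over the whole transcript does not check the edit. All 8 T-lymphocyte markers examined (among them CD3D, CD3E and LCK) reached 1 FPKM, and their sum was 1460 to 1534 FPKM in WT, 1268 to 1390 in KO1 and 1456 to 1484 in KO2. Single markers moved more than this sum: CD2 was at 35.0 to 36.6 FPKM in WT, 87.2 to 94.4 in KO1 and 3.54 to 5.11 in KO2. In both edited lines CD7 and CD3G lay above WT, and CD5, PTPRC and LCK below it, with no overlap. CD3E lay below WT in KO1 and above it in KO2, and CD3D lay below WT in KO1 only. Of the 5 neural markers TUBB3, MAP2, SYP, RBFOX3 and GFAP, 2 reached 1 FPKM (TUBB3 and SYP), and none was at 0 in all libraries. Their sum was 2.72 to 4.84 FPKM in WT, 7.42 to 8.17 in KO1 and 4.50 to 4.65 in KO2. It was highest in KO1, but unlike CDH2 below its KO2 values lay within the WT range. TUBB3 was at 1.93 to 3.61 FPKM in WT, 5.83 to 7.13 in KO1 and 2.75 to 3.25 in KO2. SYP differed from it, at 0.791 to 1.23 FPKM in WT, 0.636 to 1.08 in KO1 and 1.26 to 1.87 in KO2. The part of the neural markers in the results was not tested. The 5 epithelial markers summed to at most 0.542 FPKM in any library, with KRT19 at 0 throughout. Of 5 fibroblast markers only COL1A1 reached 1 FPKM, with COL3A1 and DCN at 0. The fibroblast sum was 0.462 to 0.554 FPKM in WT, 1.49 to 1.88 in KO1 and 1.27 to 1.60 in KO2, and its part in the results was not tested. Of 5 endothelial and 5 B-cell markers only PECAM1 and CD79A reached 1 FPKM, with CLDN5 and PAX5 at 0, and of the 5 myeloid markers none did. The myeloid sum was 0 to 0.078 FPKM in WT, 0.340 to 0.601 in KO1 and 0.322 to 0.536 in KO2, with both edited lines above WT. The endothelial sum was 15.1 to 15.4 FPKM in WT, 10.9 to 13.0 in KO1 and 14.1 to 15.4 in KO2, and the B-cell sum 24.6 to 29.03, 48.8 to 58.4 and 19.3 to 22.4. The part of these 3 sums was not tested either. In such bulk values fewer cells with a transcript and less of it per cell cannot be told apart.

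Most of the family was silent or nearly so. Of the 93 members, 32 were listed at 0 in all 9 libraries and another 42 stayed under 0.1 FPKM. The epithelial cadherin CDH1 was at 0 in 8 libraries and at 0.0164 in KO1 replicate 1, and the endothelial cadherin CDH5 was at 0 in all. A listed 0 may stand for no reads or for an estimate that failed. Only CDH2, CDH4, CDH24 and PCDH9 reached 1 FPKM in 3 or more libraries and entered the test, while 89 members did not. CDH2 and CDH24 reached 1 FPKM in only 2 WT libraries, so they passed this filter with the help of the edited lines, where they were higher.

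The make-up of the family's RNA differed between the lines. In WT, CDH4 accounted for 72.8% to 74.6% of the summed FPKM of all 93 members and CDH2 for 2.84% to 4.41%. In KO1, CDH2 accounted for 69.3% to 72.6% and CDH4 for 11.8% to 14.6%. KO2 lay between, with CDH2 at 51.4% to 51.8% and CDH4 at 25.0% to 25.8%. The sum itself was 26.3 to 28.4 FPKM in WT, 73.4 to 80.0 in KO1 and 45.8 to 47.6 in KO2, and the groups did not overlap in any of these measures.

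CDH2 (N-cadherin, the classical cadherin of neurons and mesenchymal cells) showed the largest difference of the family in FPKM. It was at 1.16, 0.797 and 1.17 FPKM in the WT libraries, at 50.8, 54.1 and 58.1 in KO1 and at 23.7, 24.1 and 24.6 in KO2. Every edited library was far above every WT library, and every KO1 library above every KO2 library. The group means were 1.04 ± 0.214, 54.3 ± 3.62 and 24.1 ± 0.474 FPKM (SD, n = 3 libraries each), a ratio of means of 52.1 in KO1 and 23.1 in KO2.

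Differences were tested with limma on log2(FPKM + 1), a scale that understates changes of weakly expressed genes, with Benjamini-Hochberg adjustment over all 11737 genes tested. The log2 fold change of CDH2 was 4.76 ± 0.08 (SE) in KO1 (limma adjusted p = 3.15e-11), the third largest rise of all tested genes (rank 3 of 11737). In KO2 it was 3.63 ± 0.08 (limma adjusted p = 2.09e-10), rank 5. The lines also differed from each other, with CDH2 lower in KO2 than in KO1 by a log2 difference of -1.14 ± 0.08 (limma adjusted p = 4.1e-06).

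The 250 bases before a start that RefSeq lists for CDH2 are shown here, with those of PCDH19, since both genes were near 0 or near 1 FPKM in WT and higher in both edited lines. CpG dinucleotides are in capitals. The windows are on GRCh38.p14, chr18:28177131-28177380 and chrX:100410274-100410523, both on the minus strand and written 5′ to 3′ along the gene.
CDH2: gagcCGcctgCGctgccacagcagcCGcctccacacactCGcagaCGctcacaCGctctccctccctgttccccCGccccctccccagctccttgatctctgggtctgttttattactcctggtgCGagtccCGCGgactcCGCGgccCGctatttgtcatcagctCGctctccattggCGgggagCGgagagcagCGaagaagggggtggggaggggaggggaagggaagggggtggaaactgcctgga
PCDH19: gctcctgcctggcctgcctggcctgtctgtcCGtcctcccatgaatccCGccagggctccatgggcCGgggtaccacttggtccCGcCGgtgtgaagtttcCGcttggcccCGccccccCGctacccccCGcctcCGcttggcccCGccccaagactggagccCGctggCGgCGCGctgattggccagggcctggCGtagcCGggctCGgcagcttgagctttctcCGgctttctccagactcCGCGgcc
The CDH2 window holds 17 CpG dinucleotides and that of PCDH19 holds 21, and the window of PCDH9 holds 20. Each member is given by 1 window, at its start farthest upstream, while the RefSeq table holds 35116 windows of 27305 genes. The median was 11 over all these windows and 6 over the 70 members that have a window (23 members have none). By class it was 5 for alpha, 6 for beta, 5.5 for gamma, 7 for cadherin and 11 for non-clustered windows. Of all windows 61% held fewer CpG than that of CDH2, 67.6% fewer than that of PCDH9 and 69.8% fewer than that of PCDH19. These 3 genes were picked because they rose. CDH4 and PCDHB2, which were lower in both edited lines, had 6 and 10 CpG. Of the members with a window CDH23 had the most CpG, 34, and CDH8, listed at 0 in all libraries, had 19. CDH24 has no window.

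CDH4 (R-cadherin, a type I classical cadherin like CDH2, of retina and brain) changed in the opposite direction. Its values were 19.1, 20.9 and 21.1 FPKM in WT, 10.7, 9.56 and 9.4 in KO1, and 11.8, 11.9 and 11.9 in KO2. All edited libraries were below all WT libraries, and all KO2 libraries lay above all KO1 libraries. CDH4 fell in KO1 (log2 fold change -0.98 ± 0.06, limma adjusted p = 1.86e-07) and in KO2 (-0.73 ± 0.06, adjusted p = 2.21e-06). The fall was smaller in KO2 than in KO1, by 0.24 ± 0.06 on the log2 scale (95% interval 0.11 to 0.38, limma adjusted p = 0.0116).

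CDH24, a type II cadherin that also binds catenins, rose in both lines. It was at 0.881, 1.59 and 1.27 FPKM in WT, at 3.22, 4.02 and 3.26 in KO1 and at 3.57, 3.8 and 3.27 in KO2. The edited libraries were all above WT and overlapped with each other. Log2 fold changes were 1.01 ± 0.12 in KO1 (limma adjusted p = 2.81e-05) and 1.03 ± 0.12 in KO2 (adjusted p = 2.96e-05). The difference between the lines was 0.02 (95% interval -0.25 to 0.28, limma adjusted p = 0.927).

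PCDH9, a non-clustered protocadherin of the nervous system, was the fourth member tested. Its values were 2.39, 2.65 and 2.64 FPKM in WT, 4.92, 4.4 and 4.46 in KO1, and 4.21, 4.73 and 5.03 in KO2. All edited libraries lay above all WT libraries, and KO1 and KO2 overlapped. The log2 fold changes were 0.65 ± 0.08 in KO1 (limma adjusted p = 2.81e-05) and 0.67 ± 0.08 in KO2 (adjusted p = 2.8e-05), and the lines differed by 0.02 (95% interval -0.16 to 0.19, adjusted p = 0.901). Strandedness of the counting is not known, but the 3 antisense rows of PCDH9 in the table (PCDH9-AS2, -AS3 and -AS4) were at 0 in every library.

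**Figure D1:**
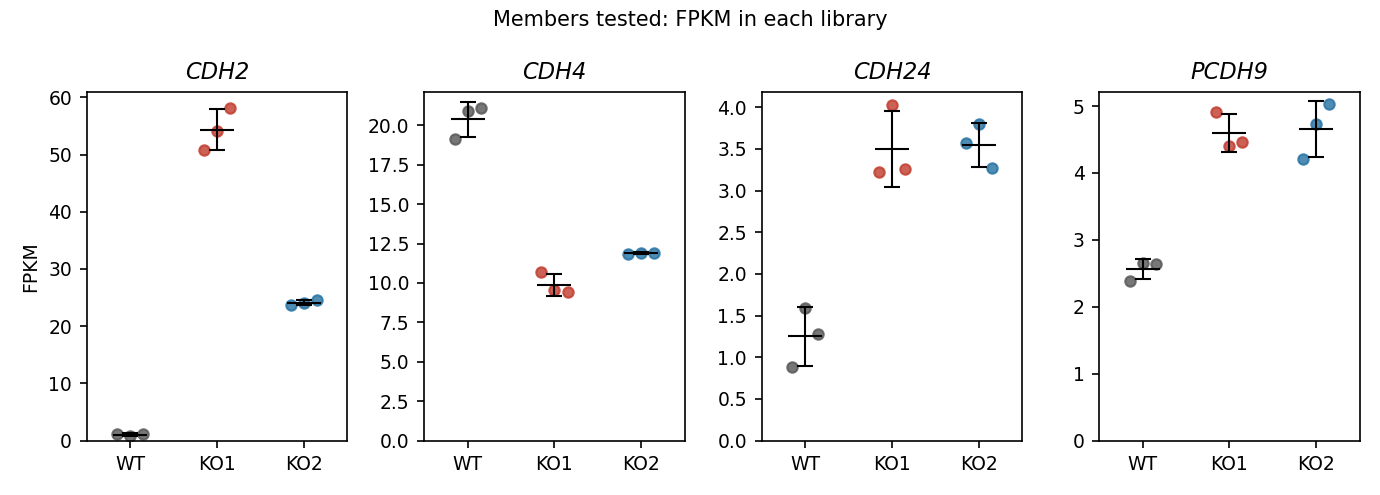
FPKM (vertical axes, each from 0) of the 4 tested members in each library of WT, KO1 and KO2 (horizontal axes); points are libraries, bars the mean ± SD of 3. CDH2 stands near 1 FPKM in WT and above 50 in KO1, and CDH4 is the member that is highest in WT.

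In all, 3 of the 4 tested members rose and 1 fell in each edited line. Over all 11737 genes tested, 67.5% passed in KO1 (35.6% higher and 31.9% lower) and 64.7% in KO2 (38.1% higher and 26.6% lower), so to pass was common among all genes. Between the edited lines 2 of the 4 passed, against 30.6% of all genes: CDH4 was higher and CDH2 lower in KO2, against 18.3% and 12.4%. Of all calls between the edited lines 59.7% were higher in KO2, but 49.0% after quantile normalization and 47.9% after median centring. By rank, CDH24 stood at 645 and PCDH9 at 1274 among rises in KO1, and CDH4 at 373 among falls.

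**Figure D2:**
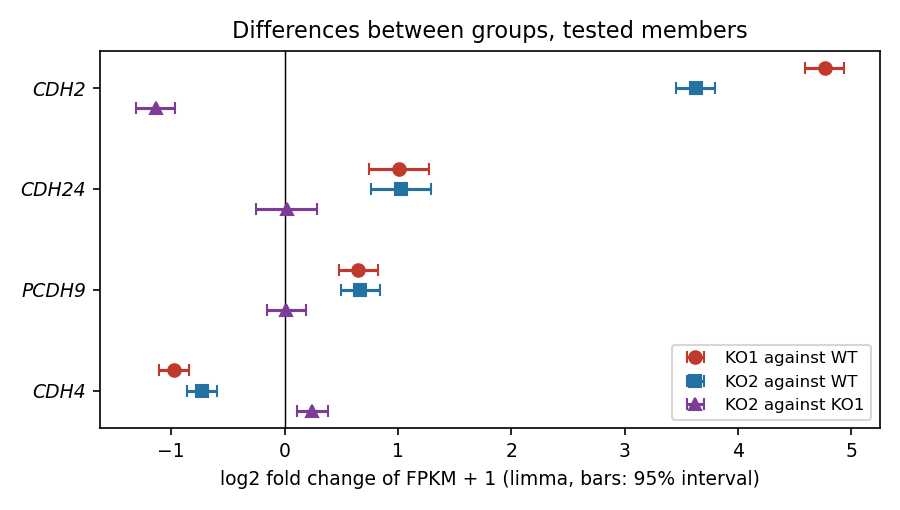
Log2 fold changes of FPKM + 1 (horizontal axis) of the 4 tested members (vertical axis) in the 3 comparisons, with 95% intervals from limma. For CDH24 and PCDH9 the interval of KO2 against KO1 includes 0, and for CDH2 and CDH4 it does not.

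Among the 89 members under the filter, 5 reached 0.5 FPKM in some library: CDH23, PCDH19, PCDHB2, PCDHGA10 and PCDHGB6. They reached it only where they were high: PCDHB2 in WT, PCDH19 in the edited lines, and CDH23, PCDHGA10 and PCDHGB6 in KO1. These 5 members were thus chosen by values that also enter their differences between groups. They had no place in the main test, so their calls come from the same limma fit run with no filter, over 26190 rows, of which 17.1% were higher and 13.5% lower in KO1, 16.6% higher and 10.9% lower in KO2, and 5.82% higher and 5.48% lower in KO2 than in KO1.

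PCDH19, an X-linked protocadherin of the brain that is mutated in a form of epilepsy, was listed at 0 in WT replicates 2 and 3 and at 0.0148 FPKM in WT replicate 1. It was at 0.637, 0.771 and 0.695 FPKM in KO1 and at 0.843, 0.833 and 0.937 in KO2, so the groups did not overlap and KO2 was the highest. In the fit with no filter it rose in KO1 (log2 difference 0.76 ± 0.03, limma adjusted p = 8.16e-06) and in KO2 (0.90 ± 0.03, adjusted p = 7.53e-06), and KO2 was above KO1 by 0.14 ± 0.03 (adjusted p = 0.0449).

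CDH23, a long cadherin that forms the tip links of inner-ear hair cells, differed mainly in KO1. It was at 0.392, 0.185 and 0.222 FPKM in WT, at 0.639, 1.24 and 1.55 in KO1 and at 0.287, 0.247 and 0.319 in KO2. The KO1 libraries spread widely, yet all were above the other 6. With no filter, CDH23 rose in KO1 (0.74 ± 0.16, limma adjusted p = 0.012) and KO2 was below KO1 (-0.72 ± 0.16, adjusted p = 0.0343). The difference of KO2 from WT was 0.02 ± 0.16 (adjusted p = 1).

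PCDHGA10 and PCDHGB6 belong to the gamma cluster. PCDHGA10 was at 0.355, 0.137 and 0.171 FPKM in WT, at 0.666, 0.382 and 0.605 in KO1 and at 0.354, 0.325 and 0.386 in KO2. PCDHGB6 was at 0.15, 0.107 and 0.0356 FPKM in WT, at 0.396, 0.245 and 0.515 in KO1 and at 0.0738, 0.0339 and 0.182 in KO2. For both genes KO1 lay above WT with no overlap, while KO2 overlapped WT. With no filter both rose in KO1 (0.34 ± 0.09 and 0.33 ± 0.09, limma adjusted p = 0.0265 and 0.025), and neither passed in KO2 (0.15 ± 0.09, adjusted p = 0.326, and -0.00190 ± 0.0855, adjusted p = 1). The direct differences between the edited lines did not pass (-0.19 ± 0.09, adjusted p = 0.293, and -0.33 ± 0.09, adjusted p = 0.0549), so a difference between the lines is not shown for either.

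**Figure D3:**
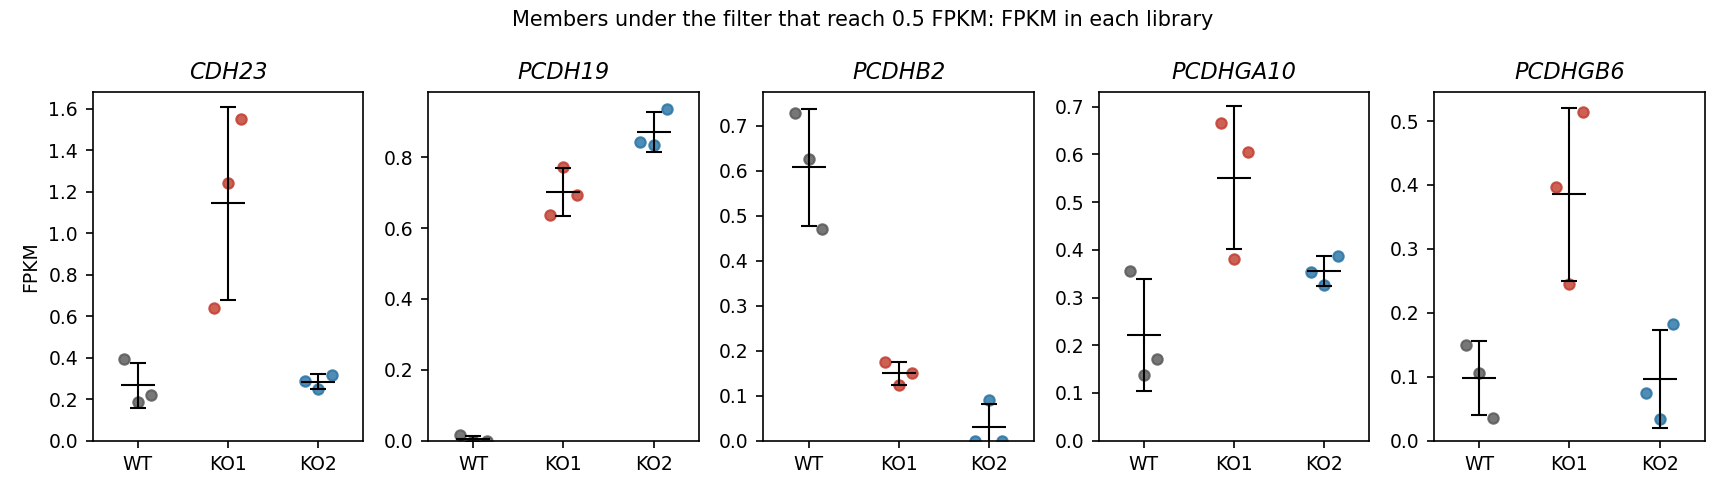
FPKM (vertical axes, each from 0) of the 5 members under the filter that reach 0.5 FPKM, in each library of WT, KO1 and KO2; bars are the mean ± SD of 3 and are cut at 0. PCDH19 is high in both edited lines, CDH23 in KO1, and PCDHB2 in WT.

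PCDHB2, a beta protocadherin, showed the opposite pattern to PCDH19. It was at 0.728, 0.625 and 0.47 FPKM in WT, at 0.175, 0.123 and 0.151 in KO1 and at 0, 0.0895 and 0 in KO2. The 3 groups did not overlap. With no filter PCDHB2 fell in KO1 (-0.48 ± 0.06, limma adjusted p = 0.00127) and in KO2 (-0.64 ± 0.06, adjusted p = 0.000409), and the difference between the lines did not pass (-0.16 ± 0.06, adjusted p = 0.201).

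The beta genes PCDHB3, PCDHB4 and PCDHB14 were chosen for naming after their values were seen. PCDHB3 was at 0.185, 0.0955 and 0.144 FPKM in WT, at 0 in all KO1 libraries and at 0, 0.0228 and 0 in KO2. PCDHB4 was at 0.0567, 0.044 and 0.0441 FPKM in WT and PCDHB14 at 0.0554, 0.0215 and 0.0215, and both were listed at 0 in all 6 edited libraries. With PCDHB2 they were the 4 of 19 beta rows that fell with no filter in KO1, and the same 4 fell in KO2 (limma adjusted p from 5.09e-05 to 0.0307). Of all 26190 rows, 13.5% fell with no filter in KO1 and 10.9% in KO2. Values as low as those of these beta genes may rest on very few fragments. Listed zeros and near-equal low values also leave little spread, so p-values with no filter need caution near 0. The smallest of these, for PCDHB4 in KO1, came with an SE of 0.00452.

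Part of the beta array shares a short motif before the gene start. It is shown because PCDHB2, PCDHB3 and PCDHB4 hold it. The other beta genes that hold it did not pass as lower, but several were at or near 0 in WT and had little or no room to fall. Promoters of the clustered protocadherins are known to carry a conserved element with a CGCT core that CTCF binds. The letters GGCGCTG were chosen after the PCDHB2 window had been read, and were searched on both strands. With 1 window per gene, they were found in 11 of the 14 beta members with a RefSeq window of 250 bases, or 78.6%. Among all windows in the table, which may hold several per gene, they were found in 9.24%. They were found in 0 of 13 alpha, 1 of 20 gamma, 1 of 12 cadherin and 1 of 11 non-clustered windows. The motif is in capitals, with up to 15 bases on either side, on the plus strand of GRCh38.p14 at chr5:141094543-141094579, chr5:141100392-141100428, chr5:141121722-141121758 and chr5:141182309-141182345.
PCDHB2: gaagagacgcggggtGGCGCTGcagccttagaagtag
PCDHB3: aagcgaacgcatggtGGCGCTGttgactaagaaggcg
PCDHB4: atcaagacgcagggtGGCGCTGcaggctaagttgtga
PCDHB16: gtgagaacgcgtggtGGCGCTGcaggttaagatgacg
The motif starts 57, 66, 81 and 63 bases before the respective gene starts. The motif and the fall were not tested against each other. PCDHB14, which fell, has no such letters in its window. PCDHB16, which has them, was at 0.0321, 0.0187 and 0.0187 FPKM in WT and at 0.0388, 0.0892 and 0.0384 in KO2, and did not pass with no filter (0.04 ± 0.02, limma adjusted p = 0.242). The remaining genes with these letters, PCDHB5, PCDHB7, PCDHB9, PCDHB10, PCDHB12, PCDHB13 and PCDHB15, passed in neither line with no filter. PCDHB12 was at 0 in all libraries and PCDHB13 at 0 in all WT libraries, so neither could fall. PCDHB5, PCDHB7 and PCDHB15 were above 0 in only 1 WT library each, at no more than 0.0301 FPKM. Results of genes this close to 0 in WT do not bear on the motif.

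The class sums rested on few members and were not tested. The beta sum was 0.908 to 1.19 FPKM in WT, 0.149 to 0.289 in KO1 and 0.0852 to 0.321 in KO2. The gamma sum was 0.56 to 0.848 FPKM in WT, 0.94 to 1.44 in KO1 and 0.522 to 0.872 in KO2. Both edited lines were thus below WT in the beta sum, and KO1 alone had no library that overlapped WT in the gamma sum. Without PCDHB2 the beta sum was 0.395 to 0.464 FPKM in WT, 0 to 0.115 in KO1 and 0.0852 to 0.232 in KO2, still lower in both edited lines. Without PCDHGA10 and PCDHGB6, a split made after the values were seen, the gamma sum was 0.316 to 0.490 FPKM in WT, 0.291 to 0.321 in KO1 and 0.163 to 0.303 in KO2, so KO1 was then not above WT. The alpha rows were almost silent, with sums of at most 0.0643 FPKM. The non-clustered sum, mostly PCDH9, was 2.51 to 2.78 FPKM in WT, 5.69 to 5.95 in KO1 and 5.26 to 6.15 in KO2.

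**Figure D4:**
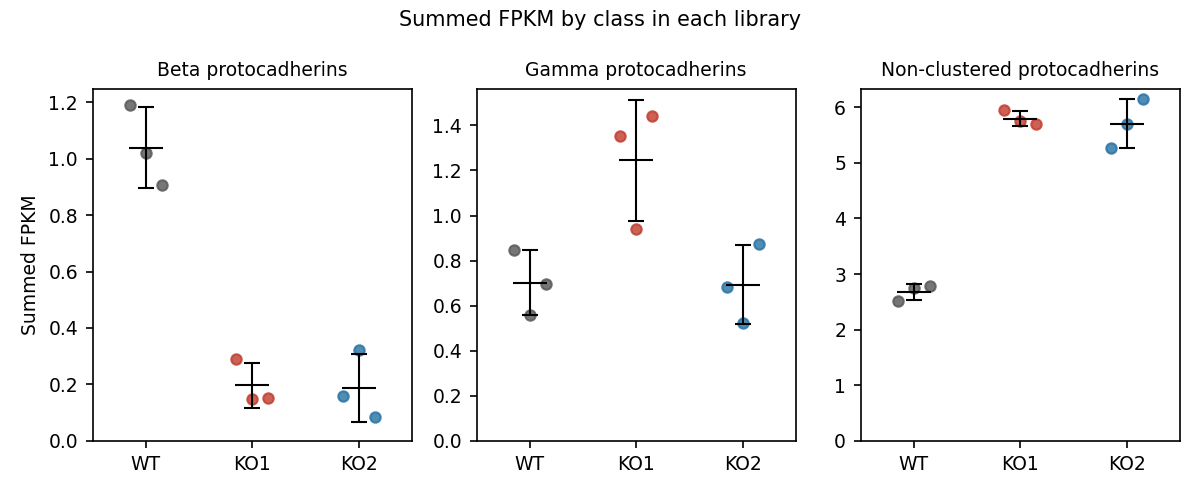
Summed FPKM (vertical axes, each from 0) of the beta, gamma and non-clustered protocadherins in each library of WT, KO1 and KO2; bars are the mean ± SD of 3 libraries. The beta sum is highest in WT, and the gamma sum is highest in KO1 by its mean.

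Rows within the arrays cannot be read as independent genes. In GENCODE 29, which need not be the annotation the authors used, the share of a member's 50-base stretches of transcript that also occur in another member had a median of 49.3% over the alpha, 14% over the beta and 43.2% over the gamma genes. It was 20.2% for PCDHB2, 36.5% for PCDHGA10 and 35.2% for PCDHGB6. For CDH2, CDH4, CDH24, CDH23, PCDH9 and PCDH19 it was 0%. How the authors' counting split shared reads is not given in the sources used here.

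The remaining members add small values. Over all 93, 13 were higher in KO1 than in WT with no overlap and 6 were lower, against 20.4% and 16.4% of all 26190 rows. In KO2 7 were higher and 5 lower, against 21.7% and 14.4%. Between the edited lines 4 were higher and 7 lower in KO2, against 14.4% and 10.7%. PCDH18, named after its values were seen, was at 0 in WT, at 0.145, 0.321 and 0.258 FPKM in KO1, and at 0.0294, 0.0135 and 0 in KO2. With no filter it rose in KO1 (0.31 ± 0.05, limma adjusted p = 0.00271) and was lower in KO2 than in KO1 (-0.29 ± 0.05, adjusted p = 0.0116). The other calls with no filter, PCDH1 and PCDHAC1 in KO1 and CDH17 in KO2, were of members that stayed under 0.1 FPKM.

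**Figure D5:**
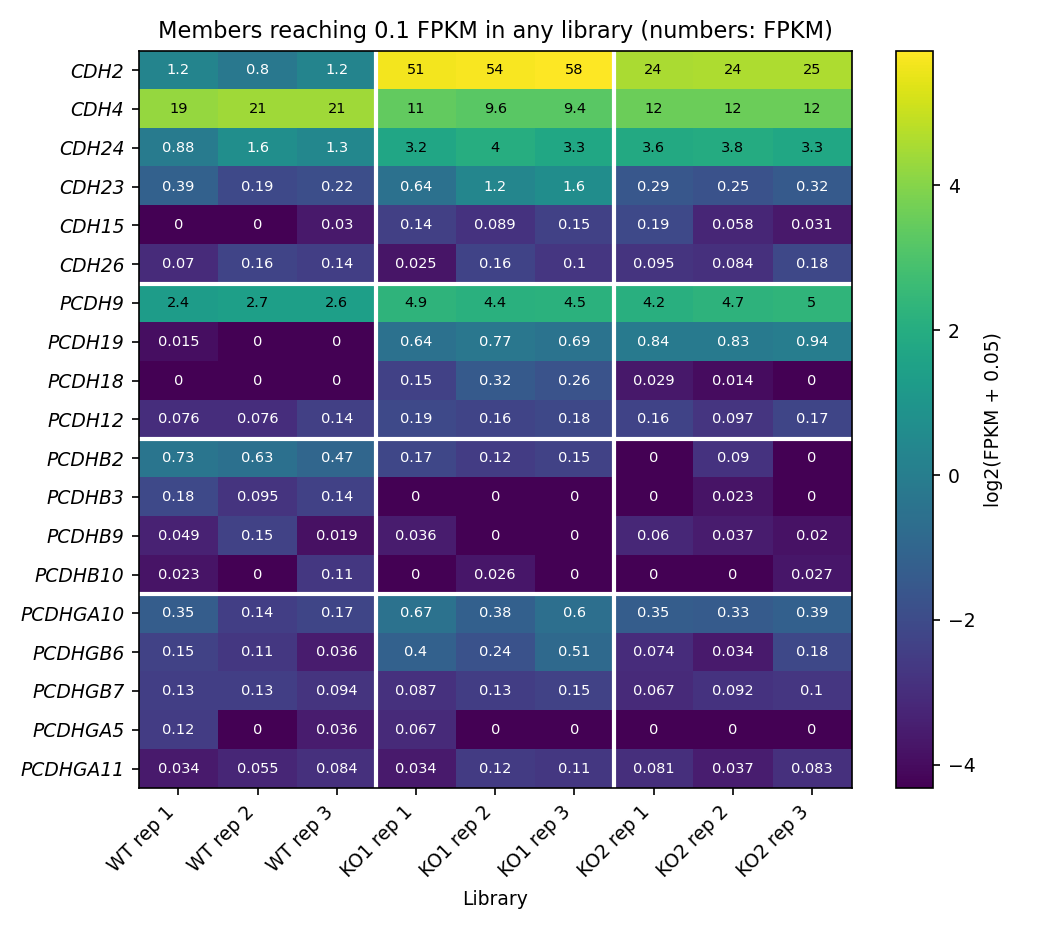
The 19 members that reach 0.1 FPKM in any library (rows, by class) in the 9 libraries (columns); numbers are FPKM and colours log2(FPKM + 0.05). CDH2 and CDH4 dominate, and the rows of PCDHB2 and PCDH19 run in opposite directions.

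The genes on either side of the members, by RefSeq order on GRCh38.p14 (used for order only, as the processing notes name hg19), did not all move with them. Of the 3 nearest tested genes on each side of CDH2 on chromosome 18, 2 rose and 2 fell in KO1; in KO2 3 rose and 2 fell. The nearest on one side was DSG2, itself a member of the wider superfamily. For CDH4 on chromosome 20, 1 rose and 2 fell in each line. For PCDHB2 on chromosome 5, 4 of the 6 fell and 0 rose in KO1, and 3 fell and 0 rose in KO2. For CDH24 on chromosome 14, 4 of the 6 rose in each line, while 0 fell in KO1 and 1 in KO2. For PCDH9 on chromosome 13, 1 rose in each line, while 3 fell in KO1 and 4 in KO2. For PCDH19 on chromosome X, 1 rose in each line, while 3 fell in KO1 and 1 in KO2. Among all tested genes the shares were 35.6% higher and 31.9% lower in KO1, against 38.1% and 26.6% in KO2, and no count of 6 neighbours was tested against them.

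Other members of the cadherin superfamily moved in both directions. Of 25 listed, 8 were tested. In KO1 4 rose and 3 fell, and in KO2 3 rose and 2 fell, with medians of 0.09 and 0.07 against 0.02 and 0.06 over all tested genes. Shares over all tested genes were 35.6% higher and 31.9% lower in KO1, and 38.1% and 26.6% in KO2. DSG2, a desmosomal cadherin, rose from 11.4, 12.2 and 11.5 FPKM in WT to 38.3, 38.2 and 41.0 in KO1 and 29.2, 27.2 and 27.4 in KO2 (log2 fold changes 1.66 ± 0.05 and 1.19 ± 0.05, limma adjusted p = 1.09e-09 and 1.99e-08). CDHR1, a cadherin of photoreceptors, fell from 5.95 to 6.3 FPKM in WT to 0.717 to 0.897 in KO1 and 0.372 to 0.434 in KO2 (-1.96 ± 0.08 and -2.35 ± 0.08). CDHR1 entered the test through the WT libraries alone. CELSR3, a seven-pass cadherin of planar polarity, rose in KO1 (0.56 ± 0.08) and stood at 0.06 ± 0.08 in KO2 (limma adjusted p = 0.523). CLSTN1, a calsyntenin of synapses, rose in both lines (0.37 ± 0.06 and 0.22 ± 0.06).

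The catenins that link classical cadherins to actin were present in all libraries (CTNNB1 and CTNNA1). Of 11 listed genes 7 were tested, and 2 rose and 1 fell in KO1, against 35.6% and 31.9% of all tested genes. In KO2 1 rose and 1 fell, against 38.1% and 26.6%. The medians were 0.05 and -0.03, against 0.02 and 0.06 over all tested genes. CTNNB1 (beta-catenin) was at 42.4 to 43.9 FPKM in WT, 56.4 to 59.1 in KO1 and 48.2 to 50.5 in KO2 (0.41 ± 0.04 and 0.19 ± 0.04, limma adjusted p = 3.59e-06 and 0.00134). CTNNA1 (alpha-catenin) was at 56.3 to 62.7 FPKM in WT and at 59.3 to 63.7 in KO1, and fell in KO2 (-0.17 ± 0.05, limma adjusted p = 0.0115). PKP4 rose in KO1 (0.49 ± 0.05) and CTNNAL1 fell there (-0.54 ± 0.09), and in KO2 they stood at 0.02 and -0.03 (limma adjusted p = 0.707 and 0.782).

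Of 12 transcription factors known to act on the CDH1 promoter, 4 were tested, and 2 rose and 1 fell in each line (medians 0.25 and 0.28). Over all tested genes the shares were 35.6% higher and 31.9% lower in KO1, and 38.1% and 26.6% in KO2 (medians 0.02 and 0.06). TWIST1, also known as an inducer of CDH2, was at 0.0945, 0 and 0.0544 FPKM in WT, at 3.08, 3.63 and 3.01 in KO1 and at 1.19, 1.5 and 1.06 in KO2. Its groups did not overlap and stood in the order of those of CDH2, a link that was not tested, and it entered the test through the edited lines alone (log2 fold changes 2.01 ± 0.10 and 1.10 ± 0.10, limma adjusted p = 3.86e-08 and 4.82e-06). ZEB1 fell in both lines (-0.44 ± 0.05 and -0.68 ± 0.05), TCF4 rose in both (0.50 ± 0.07 and 0.51 ± 0.07), and TCF3 passed in neither (adjusted p = 0.984 and 0.474). All 3 lymphocyte receptors of CDH1 were tested, and 2 rose and 1 fell in KO1, while 1 rose and 1 fell in KO2 (medians 0.50 and -0.23). ITGAE rose in KO1 (0.54 ± 0.07) and fell in KO2 (-0.23 ± 0.07, limma adjusted p = 0.0147). Its integrin partner ITGB7 rose in both lines (0.50 ± 0.11 and 0.53 ± 0.11, limma adjusted p = 0.0028 and 0.00204). ITGB7 was at 0.468 to 0.664 FPKM in WT, so it entered the test through the edited lines alone. KLRG1 fell in KO1 (-0.50 ± 0.13, limma adjusted p = 0.00474) and stood at -0.24 ± 0.13 in KO2 (adjusted p = 0.112).

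Of 10 proteases that process cadherins 9 were tested, and 4 rose and 2 fell in each line (medians 0.02 and 0.07). Over all tested genes the shares were 35.6% higher and 31.9% lower in KO1, and 38.1% and 26.6% in KO2 (medians 0.02 and 0.06). ADAM10, the main sheddase of CDH2, rose in KO1 from 78.8 to 88.7 FPKM to 144 to 160 (0.86 ± 0.05, limma adjusted p = 1.56e-07). It was at 74.9 to 78.7 FPKM in KO2 (-0.11 ± 0.05, adjusted p = 0.0899), and the lines differed (-0.97 ± 0.05, adjusted p = 6.65e-07). ADAM15 and NCSTN rose in both lines.

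All 20 listed regulators of the clustered protocadherin locus were tested, and 7 rose and 5 fell in KO1, against 35.6% and 31.9% of all tested genes. In KO2 4 rose and 6 fell, against 38.1% and 26.6%. The medians were 0.02 and 0.04, against 0.02 and 0.06 over all tested genes. The cohesin genes STAG2, SMC1A and RAD21 fell in both lines (log2 fold changes from -0.18 to -0.71), and STAG1 rose (0.94 ± 0.06 and 0.77 ± 0.06). SMC3 and CTCF were named after their values were seen. SMC3, also of cohesin, passed in neither line (0.11 ± 0.06 and 0.11 ± 0.06, limma adjusted p = 0.12 and 0.101). CTCF rose in both (0.16 ± 0.03 and 0.09 ± 0.03, limma adjusted p = 0.000753 and 0.0188). Of the 13 cytoplasmic partners of protocadherins, all tested, 4 rose and 7 fell in KO1, against the same shares of all genes. In KO2 4 rose and 8 fell (medians -0.30 and -0.30, against 0.02 and 0.06). WASF2, CYFIP2 and BRK1, of the actin-regulating WAVE complex, and the kinase FYN fell in both lines, WASF2 by the most of these (-0.93 ± 0.04 and -0.89 ± 0.04). The other WAVE genes of the list were named after their values were seen, and went both ways. ABI1 (-0.36 ± 0.05 and -0.44 ± 0.05), ABI2 (-0.36 ± 0.04 and -0.57 ± 0.04) and NCKAP1L (-0.30 ± 0.04 and -0.30 ± 0.04) fell in both lines. WASF1 (0.46 ± 0.05 and 0.23 ± 0.05) and CYFIP1 (0.47 ± 0.05 and 0.27 ± 0.05) rose in both lines, and NCKAP1 rose in KO1 (0.61 ± 0.07).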

How the data were processed

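The authors deposited 1 table of FPKM values with a column per library. STAR 2.5.0b, Cufflinks 2.2.1, bedtools 2.7.0 and hg19 appear in the submitters' processing notes, which assign them no role or order. Annotation and strandedness: not given in the sources used here, so overlapping genes may share reads. Groups and replicate numbers come from the sample titles. Of 26228 rows, 38 hold text and were left out, none of them a member.

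FPKM hold no read numbers, which bars count models. Genes that reached 1 FPKM in 3 of the 9 libraries were fitted as log2(FPKM + 1) with limma 3.58.1 in R 4.3.3 (1 mean per group, all libraries, empirical Bayes with trend, no covariates). The threshold was a Benjamini-Hochberg adjusted p under 0.05 over all tested genes. The fit was tested on simulated data. Members were named if tested or if they reached 0.5 FPKM, and up to 4 genes were named from each other list, ranked by p of both edited lines' mean against WT. Members, lists and rules were chosen with earlier results of these data known. Alternatives were other filters, pseudocounts, scalings, moderation, thresholds, a replicate block, and leaving out each library. Promoter windows are from RefSeq (GRCh38.p14; 70 of 93 members matched).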

Additional observations from a re-analysis of the deposited data

Results flagged for a closer look

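The change of CDH2 from WT differed between the edited lines: it was smaller in KO2 by -1.14 on the log2 scale (SE 0.08, limma adjusted p = 4.1e-06), and 3 of 3 KO2 libraries were below 3 of 3 KO1 libraries. The change of CDH4 also differed, by 0.24 (SE 0.06, limma adjusted p = 0.0116), with 3 of 3 KO2 libraries above 3 of 3 KO1 libraries. Both lines are compared with the same WT libraries, and these tests of KO2 against KO1 do not use WT values beyond their share in the estimate of the spread.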

How the results depend on the processing

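The counts of members called were 4, 4 and 2 (KO1 from WT, KO2 from WT, KO2 from KO1). With no filter they were 15, 10 and 7, since 93 members were then tested. With a filter at 5 FPKM they were 2, 2 and 2, since only CDH2 and CDH4 were tested. Asking also for a 2-fold change gave 2, 2 and 1, and an adjusted p under 0.01 gave 4, 4 and 1. Leaving out any 1 library gave 4 to 4, 4 to 4 and 2 to 2. The replicate block gave 4, 4 and 2. The shared replicate numbers were not taken as pairs in the main fit. Correlations of same-numbered libraries' deviations from group means ran from -0.287 to -0.0767 for KO1 with WT and from 0.0330 to 0.318 for KO2 with WT. For KO2 with KO1 they ran from -0.0774 to 0.143. Whether the numbers pair the samples is not settled by these values. The differences of KO2 from KO1 that did not pass changed sign: CDH24 to -0.000203 and PCDH9 to -0.0245 after quantile normalization, and to -0.0174 and -0.0191 after median centring. Without 1 library they ran from -0.0273 to 0.0987 for CDH24 and from -0.0322 to 0.0738 for PCDH9. The other 212 values of tested members kept their direction and side of the threshold. Of the recomputed differences of members under the filter, 98 stayed within 1 SD and 22 moved further, all with a pseudocount of 0.1 or 0.5. FPKM give no read depth, which limits what the low members can show.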
